A study of Gallus gallus with 6 samples.

Results

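Genes of the actin filament and muscle cytoskeleton, *NEXN*, *ACTA1*, *ABLIM1*, *DES* and *ABLIM3*, were followed in single small yellow follicles of the hen. These 5 genes, of the 17992 genes of the deposited table, were picked by gene number: gene10706, gene5400, gene9540, gene10090 and gene13036. RNA of whole follicles from 3 wild type Jining Bairi hens of 30 weeks was sequenced, with 6 follicles of 6 to 8 mm and 1 library for each. T4, T5 and T6 were set against T1, T2 and T3, and the pairs T4 and T1, T5 and T2, and T6 and T3 each came from 1 hen, called hen 1, hen 2 and hen 3 here. In the submitters' titles T4, T5 and T6 are the follicles with lower *FSHR* and T1, T2 and T3 those with higher *FSHR*, while *FSHR*, the receptor for follicle-stimulating hormone, was higher in T4, T5 and T6 in these data. The follicles are therefore called by their numbers, and a log2 ratio always has T4, T5 or T6 on top and the other follicle of the hen below.

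A small yellow follicle is a yolk-filled oocyte, wrapped in a layer of granulosa cells and, outside a basement membrane, in a theca. The theca holds fibroblasts, vessels, nerve and smooth muscle, among other cells. Actin filaments carry tension and shape in all of these cells, while desmin filaments are known from muscle, where they tie the contractile units to each other and to the membrane. *NEXN* encodes nexilin, an actin-binding protein of the Z disc in mammals, and *ACTA1* encodes skeletal muscle alpha actin, a subunit of the thin filament. *ABLIM1* and *ABLIM3* encode related proteins with LIM domains and a villin headpiece that binds actin filaments, and *DES* encodes desmin. In RNA from a whole follicle, fewer cells of a type and less RNA per cell cannot be told apart.

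The gene names come from a supplementary table of the study that describes genes called between T1 and T4. Directions in hen 1 therefore had a part in the choice of these genes and of all genes listed below. Hens 2 and 3 did not name the genes. Members and lists were still chosen with earlier results of these data known, so hens 2 and 3 are no independent check. The depth was 12559865 to 13940809 estimated fragments per follicle. T4 stood apart from the rest: its Spearman correlation with the other follicles over genes was 0.866 to 0.932, and the other 5 follicles correlated with each other at 0.943 to 0.977. The labelled tissue was checked against its markers. All 6 granulosa markers (*FSHR*, *INHA*, *ZP3*, *NR5A1*, *GATA4* and *GATA6*) and all 10 connective tissue markers of the theca reached 1 FPKM in every follicle. FPKM is corrected for transcript length and for library size, so that levels of genes of unlike length can be compared. The granulosa markers summed to 5323 to 13092 FPKM in T4, T5 and T6, against 2211 to 2779 FPKM in T1, T2 and T3, most of it from *ZP3*. The theca markers summed to 1188 FPKM in T4, 4754 in T5 and 7001 in T6, against 6275 in T1, 4616 in T2 and 7862 in T3. Within hens, 6 of the 6 granulosa markers were above T1 in T4, 5 of 6 were above T2 in T5, and 5 of 6 were above T3 in T6. T4 had the highest granulosa sum and the lowest theca sum of all follicles. All of these markers were named on hen 1, and *FSHR*, by which the follicles are labelled, is among them. Their directions are therefore a description and no check of the labels. The 4 endothelial markers summed to 20.2 to 100.2 FPKM in T4, T5 and T6 and to 87.9 to 119 FPKM in T1, T2 and T3, with no marker at 0. The macrophage marker *MPEG1* and the nerve marker *SOX10* together gave 0.878 to 25.3 FPKM in T4, T5 and T6 and 7.30 to 56.0 FPKM in T1, T2 and T3. Genes that define smooth muscle, such as its own actins and myosin heavy chain, were not analysed here.

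**Figure D1:**
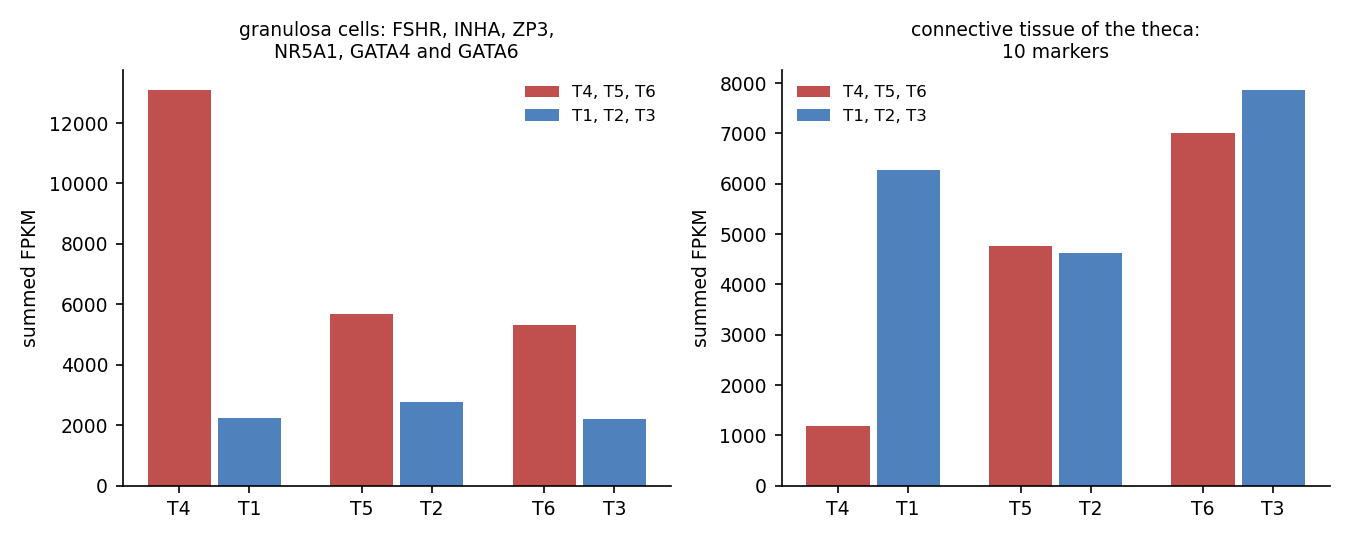
Summed FPKM of the 6 granulosa markers (left) and the 10 connective tissue markers of the theca (right), 1 bar per follicle, with the follicles of 1 hen side by side. T4 has the tallest granulosa bar, 13092 FPKM, and the shortest theca bar, 1188 FPKM.

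*NEXN* was the member with the widest range. It lies on chromosome 8, from 17817186 to 17842144 on the minus strand. All positions are as the deposited table gives them, and the sources conflict on the genome build. *NEXN* was at 50.7 FPKM in T4, 15.7 in T5 and 42.9 in T6, against 4.63 in T1, 3.54 in T2 and 8.18 in T3. Each of T4, T5 and T6 stood above each of T1, T2 and T3, and the highest follicle held 14.3 times the level of the lowest. The mean was 36.4 ± 18.4 FPKM in T4, T5 and T6 and 5.45 ± 2.43 FPKM in T1, T2 and T3 (SD, n = 3 each). Of the 5 members, *NEXN* alone had T4, T5 and T6 all above T1, T2 and T3, as did 5.94% of the 12381 genes tested. No member had them all below, against 3.9% of the genes tested.

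The normalized count, the second measure in the table, gave the same order for *NEXN*: 1798 in T4, 526 in T5 and 1528 in T6, against 161 in T1, 126 in T2 and 285 in T3. The log2 ratio of FPKM, with 0.5 added to each value, was 3.32 in hen 1, 2.0 in hen 2 and 2.32 in hen 3. On that scale the fold was 9.99 for T4, 4.0 for T5 and 5.0 for T6, which understates a change of low genes. Within a hen there is 1 follicle on each side and no test. The exact 95% interval from the estimated fragments, which lies around the ratio of normalized counts and covers counting error only, ran from 3.26 to 3.72 in hen 1, from 1.79 to 2.36 in hen 2 and from 2.24 to 2.61 in hen 3. Few genes had a higher ratio than *NEXN*: they numbered 39 of 12688 for hen 1, 41 of 12585 for hen 2 and 37 of 12706 for hen 3. *NEXN* was also among the 34 of 12381 genes (0.275%) that were at least 2-fold higher in the follicle T4, T5 or T6 of every hen, as the only member. *FSHR* was not among them.

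*NEXN* shares 9846 bases of its span with gene10705 on the opposite strand, and the sources used here do not say whether the counting used strand. Reads of the overlap could therefore not be assigned with certainty. That gene had 54.8 FPKM in T4, 55.6 in T5 and 68.8 in T6, against 60.5 in T1, 49.4 in T2 and 60.6 in T3. Its log2 ratios were -0.14, 0.17 and 0.18 in hens 1, 2 and 3, far from those of *NEXN*. The other adjacent gene, gene10707, stayed between 1.31 and 2.26 FPKM.

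*ACTA1* lies on chromosome 3, from 39337663 to 39340365 on the minus strand. Its level was 235 FPKM in T4, 193 in T5 and 391 in T6, against 88.1 in T1, 59.2 in T2 and 216 in T3. The follicle with more *FSHR* RNA by sequencing held more *ACTA1* in every hen, but the groups overlapped, since T3 was above T5. Both follicles of hen 3 were high for their side. The mean was 273 ± 104 FPKM in T4, T5 and T6 and 121 ± 83.5 FPKM in T1, T2 and T3 (SD, n = 3 each). Normalized counts were 4546, 3788 and 7628 in T4, T5 and T6 and 1739, 1164 and 4147 in T1, T2 and T3. The log2 ratio was 1.41 in hen 1, 1.70 in hen 2 and 0.85 in hen 3. Its counting intervals were 1.31 to 1.46, 1.61 to 1.80 and 0.82 to 0.93 in hens 1, 2 and 3, so the hens differed by more than counting error. *ACTA1* had its highest ratio in hen 2, where 59 of 12585 genes stood higher. Chicken actin genes are near-identical over much of their coding sequence, and reads of the smooth muscle, cardiac and cytoplasmic actins could have been counted here, so the identity of this signal is uncertain.

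*ABLIM1*, the longest member with a transcript of 8862 bases, lies on chromosome 6 from 27352949 to 27531963 on the minus strand. It had 67.1 FPKM in T4, 36.2 in T5 and 45.3 in T6, against 23.5 in T1, 20.6 in T2 and 41.4 in T3. T3 lay above T5, so the groups overlapped, and T6 and T3 were close. The mean was 49.5 ± 15.9 FPKM in T4, T5 and T6 and 28.5 ± 11.2 FPKM in T1, T2 and T3 (SD, n = 3 each). Normalized counts were 8044, 4220.3 and 5438 in T4, T5 and T6, against 2865, 2424 and 4936 in T1, T2 and T3. The log2 ratio was 1.49 in hen 1, 0.80 in hen 2 and 0.13 in hen 3. The interval of hen 3 was 0.08 to 0.20, and 39.2% of all genes had a higher ratio in that hen. In hen 2, 2.53% of genes did. *ABLIM1* thus shared the direction of *NEXN* and *ACTA1* in every hen, with a ratio near 0 in hen 3.

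*DES*, which stands for the muscle of the theca here, lies on chromosome 7, from 21657666 to 21673684 on the minus strand. It was the most abundant member in 4 of the 6 follicles, the exceptions being T4 and T6, where *ACTA1* was higher. Its level was 54.8 FPKM in T4, 239.6 in T5 and 274 in T6, against 259 in T1, 181 in T2 and 393 in T3. T4 was far below the other 5 follicles, which spanned 181 to 393 FPKM, and the groups overlapped. The mean was 189 ± 118 FPKM in T4, T5 and T6 and 278 ± 108 FPKM in T1, T2 and T3 (SD, n = 3 each). Normalized counts were 1018, 4449 and 5038 in T4, T5 and T6 and 4797, 3363 and 7322 in T1, T2 and T3. The log2 ratio was -2.23 in hen 1, 0.41 in hen 2 and -0.52 in hen 3, so that hen 2 went against the other hens. Its counting interval was 0.34 to 0.47 in hen 2 and -0.59 to -0.49 in hen 3. In the same hens, the log2 ratio of the summed theca markers was -2.40, 0.04 and -0.17, and that of the summed endothelial markers was -2.43, 0.19 and -0.28. The part of the cell mixture in the *DES* values was not tested. *DES* shares 12041 bases of its span with gene10088 on the same strand. That gene had 2.04 FPKM in T4, 8.60 in T5 and 10.03 in T6, against 5.56 in T1, 6.47 in T2 and 8.56 in T3, each a small part of the *DES* level.

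*ABLIM3* lies on chromosome 13, from 7884132 to 7919510 on the minus strand, and was the least abundant member in 4 of the 6 follicles. In T1 and T2 it stood above *NEXN*, and in T3 the pair was level, at 8.07 FPKM for *ABLIM3* and 8.18 FPKM for *NEXN*. *ABLIM3* had 1.66 FPKM in T4, 8.84 in T5 and 8.58 in T6, against 8.64 in T1, 7.95 in T2 and 8.07 in T3. T4 was alone at the low end, and the other follicles were nearly level. The mean was 6.36 ± 4.07 FPKM in T4, T5 and T6 and 8.22 ± 0.37 FPKM in T1, T2 and T3 (SD, n = 3 each). Normalized counts were 44.6, 259 and 246 in T4, T5 and T6, against 259, 225 and 231 in T1, T2 and T3. The log2 ratio was -2.08 in hen 1, 0.14 in hen 2 and 0.08 in hen 3. T4 held only 44 estimated fragments, the ratio of normalized counts in hen 1 was -2.52, and its interval was wide, from -3.03 to -2.07. The intervals of hen 2 (-0.06 to 0.47) and hen 3 (-0.18 to 0.35) both contained 0, so no difference was detectable there at this depth.

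*AFAP1L1*, which encodes an actin filament associated protein, lies 894 bases from *ABLIM3* on the same strand. It had 3.01 FPKM in T4, 18.4 in T5 and 21.1 in T6, against 13.5 in T1, 15.8 in T2 and 25.2 in T3. Its log2 ratio was -2.0 in hen 1, 0.21 in hen 2 and -0.25 in hen 3, so T4 was again the low follicle. The gene on the other side, gene13037, was at 1.54 FPKM or less in every follicle.

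**Figure D2:**
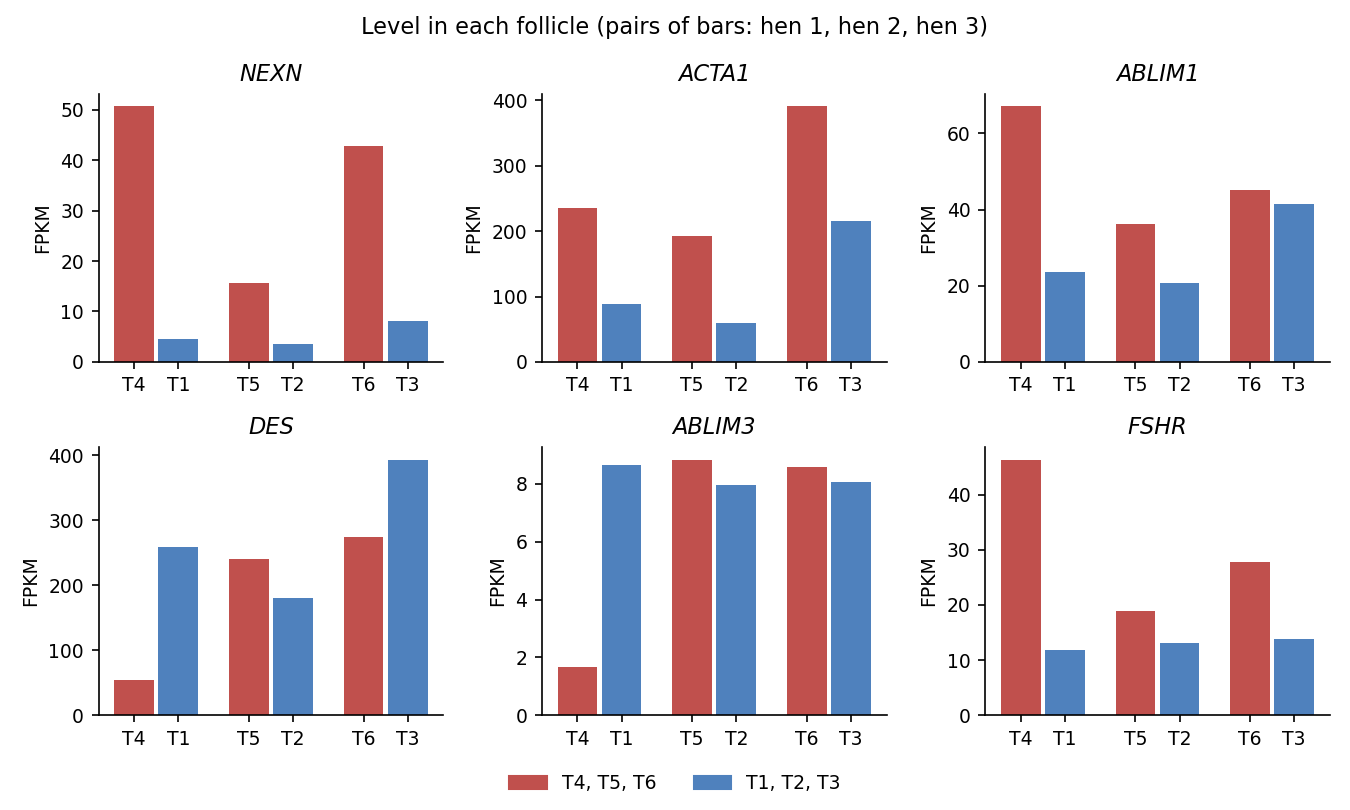
FPKM of the 5 members and *FSHR*, 1 bar per follicle, with the follicles of 1 hen side by side. *NEXN* ranges from 3.54 to 50.7 FPKM with every red bar above every blue bar, while *DES* and *ABLIM3* are low in T4 only.

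Read together by hen, 3 of the 5 members were at least 2-fold higher in T4 than in T1, where 5.38% of 12688 genes were, and 2 of 5 were at least 2-fold lower, where 13.3% were. Since these genes were named on hen 1, nothing is read from that. In hen 2, *NEXN* and *ACTA1* were at least 2-fold higher in T5, where 1.46% of 12585 genes were, and no member was 2-fold lower, where 3.31% were. In hen 3, *NEXN* was at least 2-fold higher in T6, where 2.61% of 12706 genes were, and again no member was 2-fold lower, where 4.41% were. The median log2 ratio of the members was 1.41 in hen 1, 0.80 in hen 2 and 0.13 in hen 3, against 0.01, -0.02 and 0.01 over all genes.

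**Figure D3:**
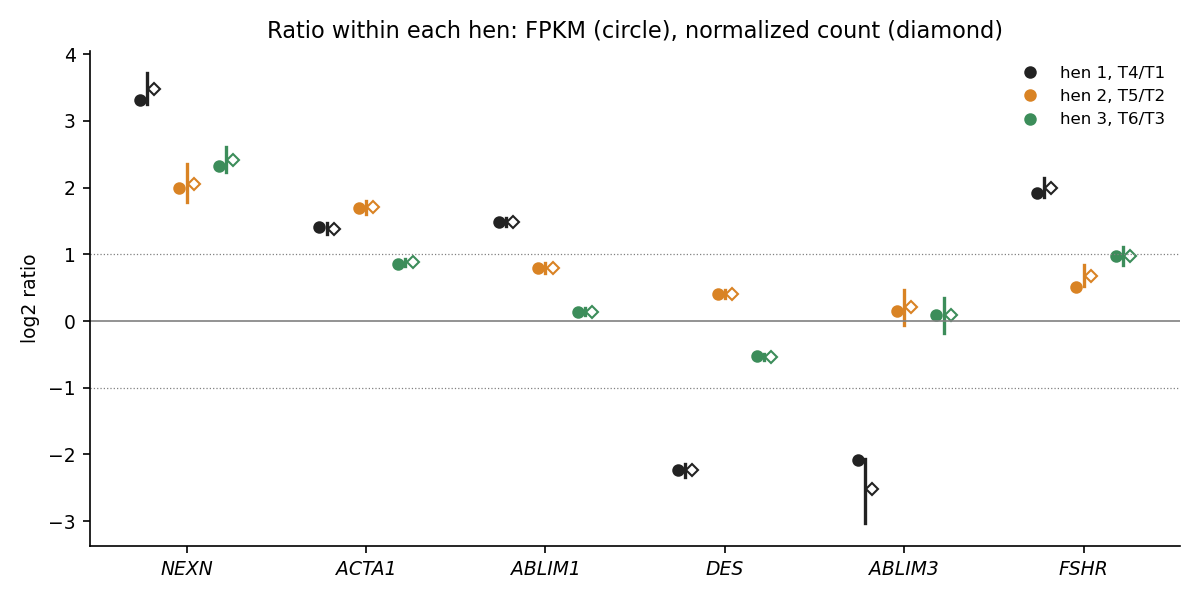
Log2 ratio of each member and *FSHR* in hen 1 (T4/T1), hen 2 (T5/T2) and hen 3 (T6/T3), from FPKM (circles) and normalized counts (diamonds), with vertical lines for the 95% counting interval and dotted lines at a fold of 2. *NEXN* lies above the upper dotted line in all hens, and *DES* and *ABLIM3* lie below the lower line in hen 1 only.

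Over the 3 hens, no member passed the test. With limma on log2(FPKM + 0.5) and the hen as a block, 0 of 12381 genes (0%) passed an adjusted p of 0.05, and 708 had an unadjusted p under 0.05. *NEXN* had a mean log2 ratio of 2.55 ± 0.29 (SE) and was higher in 3 of 3 hens, with a limma p of 0.000178, the smallest of all genes, and an adjusted p of 0.774. *ACTA1* had 1.32 ± 0.22 (SE), higher in 3 of 3 hens, with a limma p of 0.00121 and an adjusted p of 0.774. *ABLIM1* had 0.81 ± 0.28 (SE), also higher in 3 of 3 hens, with a limma adjusted p of 0.774. *DES* had -0.78 ± 0.49 (SE), lower in 2 of 3 hens, and *ABLIM3* had -0.62 ± 0.48 (SE), lower in 1 of 3 hens, with limma adjusted p of 0.774 and 0.79. Of all genes tested, 14.7% were higher in T4, T5 and T6 in every hen.

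Without hen 1, whose libraries had named the genes, *NEXN* and *ACTA1* passed limma. The members were picked with earlier results of these data known, so leaving out hen 1 does not undo the choice. The mean of hens 2 and 3 was 2.16 for *NEXN*, with a limma adjusted p of 4.54e-20, and 1.28 for *ACTA1*, with 0.000156. The number of genes passing was 466 (3.76%). This fit has 2 pairs, and its spread comes almost wholly from the other genes. Without limma's robust option, *NEXN* had an adjusted p of 0.000559 and *ACTA1* of 0.0304 (125 genes or 1.01% passed). Without its trend option as well, *NEXN* kept 0.0374 and *ACTA1* lost its call at 0.126 (21 genes or 0.17% passed). Over all alternatives the limma adjusted p ran from 4.54e-20 to 0.999 for *NEXN* and from 0.000156 to 0.999 for *ACTA1*. *ABLIM1* (mean 0.46, limma adjusted p 0.283), *DES* (-0.06, 0.964) and *ABLIM3* (0.11, 0.911) did not pass without hen 1. The mean of *ABLIM3* thereby changed sign and that of *DES* came close to 0.

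*FSHR*, on chromosome 3, had 46.4 FPKM in T4, 18.9 in T5 and 27.8 in T6, against 11.9 in T1, 13.1 in T2 and 13.9 in T3. Its log2 ratio was 1.92 in hen 1, 0.51 in hen 2 and 0.98 in hen 3. The follicles are labelled by this gene, so its order is a description. In the quantitative PCR of the study, *FSHR* was also higher in T4, T5 and T6. That difference was large in hen 1 only and small in hens 2 and 3, so the order in hens 2 and 3 rests mainly on the sequencing. Likeness to *FSHR* and to *DES* was measured as the mean absolute difference, over the 6 follicles, of log2(FPKM + 0.5) centred on its own mean. *ABLIM1* was nearest to *FSHR*, with a difference of 0.26, and 0.92 from *DES*. *ACTA1* was 0.62 from *FSHR* and 1.06 from *DES*, and *NEXN* was 0.70 from *FSHR* and 1.67 from *DES*. All of these had the sign of *FSHR* in 3 of 3 hens and the sign of *DES* in 1 of 3. *NEXN* differed from *FSHR* in size rather than direction, with the larger ratio in each hen. By this measure, a gene with the same level in all follicles would lie nearer to *FSHR* than *ACTA1* and *NEXN* did. The differences of *ACTA1* and *NEXN* from *FSHR* therefore show no likeness in themselves, and only the signs are shared. *ABLIM3* was 0.25 from *DES* and 1.03 from *FSHR*. Its sign was that of *DES* in 2 of 3 hens and that of *FSHR* also in 2 of 3, so the signs do not separate them. *DES* itself was 1.06 from *FSHR*. Of 12379 other genes tested, 64.9% were nearer to *FSHR* than to *DES*, so that a place nearer to *FSHR* is common.

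The hens gave the pattern unequal weight. The likeness of *ABLIM3* to *DES* rests on the low values of T4, while in T3 *DES* was at its highest and *ABLIM3* was not. *ABLIM1* followed *FSHR* in hens 1 and 2 but had 0.13 in hen 3, where *FSHR* had 0.98. *ACTA1* exceeded *FSHR* in hen 2, at 1.70 against 0.51. Against the summed granulosa markers, whose log2 ratios were 2.56, 1.04 and 1.27 in hens 1, 2 and 3, *ABLIM1* differed by 0.47, *NEXN* by 0.62 and *ACTA1* by 0.74. That sum is mostly *ZP3*, an egg envelope gene, with 10951 FPKM in T4, 5207 in T5 and 4217 in T6, against 1948 in T1, 2547 in T2 and 2005 in T3. The median log2 ratio of the 5 granulosa markers other than *FSHR* was 1.55 in hen 1, 0.14 in hen 2 and 1.07 in hen 3, and *GATA4* had -0.04 in hen 2 and -0.07 in hen 3. *DES* differed from the summed theca markers by 0.15, and *ABLIM3* from the summed endothelial markers by 0.14. The part of these cells in the members' values was not tested.

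**Figure D4:**
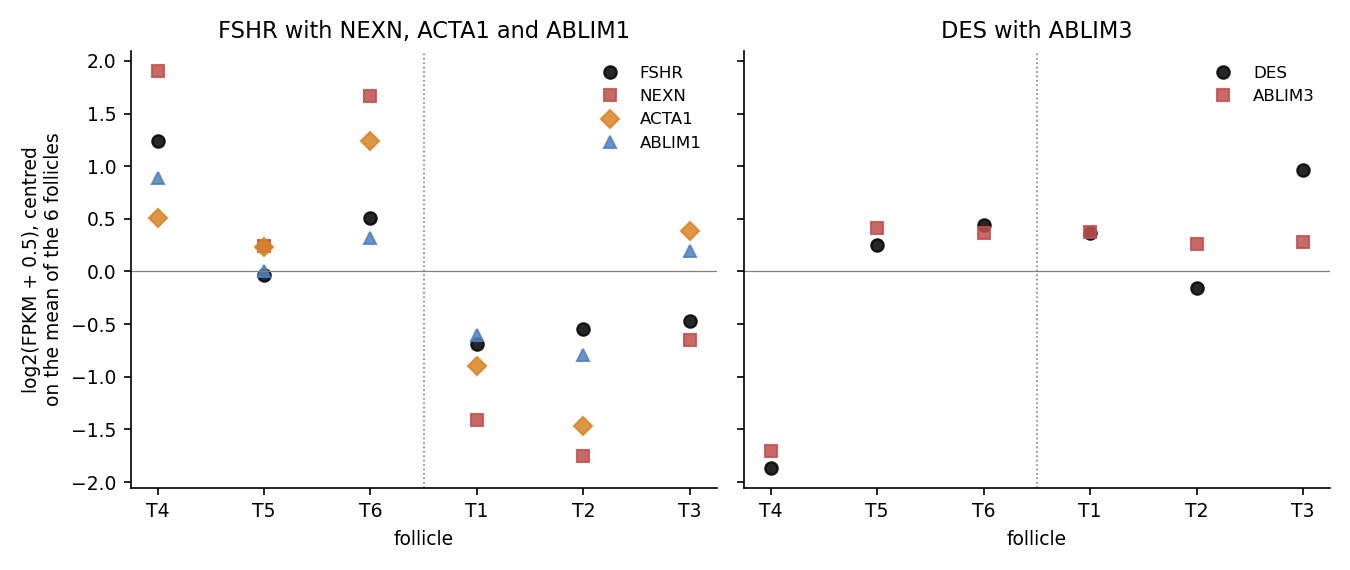
Log2(FPKM + 0.5) of each gene, centred on its mean over the 6 follicles, by follicle. *FSHR* with *NEXN*, *ACTA1* and *ABLIM1* (left) is mostly above 0 in T4, T5 and T6 and below 0 in T1 and T2, and *DES* with *ABLIM3* (right) is far below 0 in T4 only.

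Ratios of members within a follicle do not depend on the scaling of a library. *NEXN* per *DES* was 0.925 in T4, 0.0653 in T5 and 0.157 in T6, against 0.0179 in T1, 0.0196 in T2 and 0.0208 in T3. In T1, T2 and T3 this ratio was nearly constant, although both genes varied among these follicles by more than 2-fold. *ACTA1* per *DES* was 4.29 in T4, 0.806 in T5 and 1.43 in T6, against 0.341 in T1, 0.328 in T2 and 0.549 in T3. *NEXN* per *ACTA1* was 0.215 in T4, 0.081 in T5 and 0.11 in T6, against 0.0525 in T1, 0.0598 in T2 and 0.0378 in T3. For each of these ratios the lowest of T4, T5 and T6 exceeded the highest of T1, T2 and T3, and how many other gene pairs do so was not counted. *ABLIM1* per *ABLIM3* was 40.4 in T4, 4.09 in T5 and 5.27 in T6, against 2.72 in T1, 2.59 in T2 and 5.13 in T3, and here the groups overlapped.

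The nearest genes were sought by the same measure among 543 named genes with a mean of at least 5 FPKM. Those nearest to *NEXN* were the extracellular sulfatase Sulf-1, which trims heparan sulfate (difference 0.31), the potassium channel gene *KCNQ1* (0.33) and the gene of protein FAM189A2 (0.33). The log2 ratio of the sulfatase was 4.32 in hen 1, 2.41 in hen 2 and 1.85 in hen 3. *ACTA1* was closest to leucine-rich repeat neuronal protein 4 (0.25), *EPHX1L* (0.25) and a cysteine proteinase (0.31). *ABLIM1* was close to genes that included the tumour necrosis factor receptor gene *TNFRSF1B* (0.11) and *ASB9* (0.11). *DES* was closest to *ADAM33*, a membrane metalloprotease (0.09), an Arf-GAP protein (0.10) and fibulin-2 of the extracellular matrix (0.10). *ABLIM3* was closest to the RNA-binding protein MEX3A (0.06), *hoxb6* (0.06) and a septin-4-like gene (0.06). All of the nearest genes were called on hen 1 by the study, which shapes these neighbourhoods.

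A wider list of 43 other actin, myosin, sarcomere and intermediate filament genes had 34 that entered the test. With limma, 0 of these 34 passed and 9 had an unadjusted p under 0.05, beside 708 of all 12381 genes tested. The values of hen 1, by whose calls the list was named, enter these p-values, so nothing is read from the 9. Among all 43, 15 were higher in the follicle T4, T5 or T6 of every hen and 1 was lower in every hen, where 14.7% and 14.3% of all genes tested were. The direction in hen 1, by which the genes were named, enters this count: 27 of the 43 were higher in T4 and 16 lower. The median of the mean log2 ratio was 0.54 over the list, against -0.04 over all genes. In hen 2, 4 of the 35 expressed list genes were at least 2-fold higher and 1 was lower, beside 1.46% and 3.31% of all genes. In hen 3, 7 of 37 were higher and 0 lower, beside 2.61% and 4.41%. The medians were 0.23 in hen 2 and 0.35 in hen 3. Of the 27 genes higher in T4, 3 were at least 2-fold higher in T5 and 7 in T6. The shares beside these counts are over all genes and not over genes called in hen 1. Nothing about cytoskeleton genes is therefore read from the counts of hens 2 and 3, also for the single lists below. In hen 1, 24 of 39 were higher and 12 lower, beside 5.38% and 13.3%. The list was named by calls in hen 1, so nothing is read from these hen 1 counts. Of 34 genes tested, 22 were nearer to *FSHR* and 12 to *DES*, a share (64.7%) like that of all genes.

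Sarcomere and striated muscle genes held the highest log2 ratios of the 4 lists in hens 2 and 3. *SRL*, which encodes sarcalumenin, a calcium-binding protein of the sarcoplasmic reticulum, had 8.92 FPKM in T4, 0.89 in T5 and 30.6 in T6, against 0.18 in T1, 0.46 in T2 and 0.56 in T3. It did not enter the test because it reached 1 FPKM in fewer than 3 follicles. *TNNI1*, slow troponin I, had 6.96 FPKM in T4, 1.31 in T5 and 6.50 in T6, against 0.46 in T1, 0.95 in T2 and 1.72 in T3. In contrast *MYL4*, an embryonic myosin light chain, followed the direction of *DES* in every hen, with log2 ratios of -2.21, 1.35 and -0.32. The low levels of *SRL* and *TNNI1* rest on few reads. *SRL* had 11 estimated fragments in T1, 27 in T2 and 28 in T3. For *TNNI1* these were 5 in T1, 7 in T2, 13 in T3 and 14 in T5. Across the list, 2 of 7 expressed genes were at least 2-fold higher in T5 than in T2 (1.46% of all genes) and 4 of 9 in T6 than in T3 (2.61%), with 0 lower in either hen (3.31% and 4.41%).

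Actin-binding and actin-regulating genes had a median log2 ratio of 1.15 in hen 1, 0.21 in hen 2 and 0.29 in hen 3. *ESPNL*, an espin-like gene of actin bundles, had 10.9 FPKM in T4, 1.24 in T5 and 5.43 in T6, against 0.23 in T1, 0.25 in T2 and 1.92 in T3. It was at least 2-fold higher in the follicle T4, T5 or T6 of every hen, as were 0.275% of the 12381 genes tested. The ratios in hens 1 and 2 rest on few reads, with 5 estimated fragments in T1, 5 in T2 and 23 in T5. *CDC42EP4*, an effector of the GTPase Cdc42, had a log2 ratio of 1.35 in hen 1, 0.30 in hen 2 and 1.30 in hen 3, and the actin-binding scaffold gene *IQGAP2* had 1.04, 0.97 and 0.51. *CDC42EP2* had 5.09 FPKM in T4, was listed at 0 in T5 and had 0.000482 FPKM in T6, against 0.76 in T1, 3.31 in T2 and 0.19 in T3. At a fold of 2, 2 of 21 expressed genes of this list were higher in T5 and 1 was lower, where 1.46% and 3.31% of all genes were. In T6, 2 of 21 were higher and 0 lower, where 2.61% and 4.41% of all genes were.

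Of the unconventional myosins, which move cargo along actin, *MYO6* was higher in every hen, with log2 ratios of 1.29, 0.43 and 0.88. *MYO3A* had 1.80, -0.47 and 1.43, *MYO10* had 1.16, 0.44 and -0.19, and *MYO16* had 1.42, -0.16 and 0.41. The intermediate filament list joined *DES* in hen 1. *KRT14*, a keratin, had 8.57 FPKM in T4, 183 in T5 and 115 in T6, against 55.0 in T1, 169 in T2 and 114 in T3. The log2 ratio of *NES*, the gene of nestin, was -1.91, 0.56 and -0.41, and that of the small heat shock protein gene *HSPB1* was -2.26, 0.45 and 0.26. All 3 genes were nearer to *DES* than to *FSHR*, as were 4346 of the 12379 other genes tested. They were named on calls in hen 1, where all 3 were lower in T4, so nothing is read from that nearness. None of the 3 was 2-fold different in hen 2 or hen 3.

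**Figure D5:**
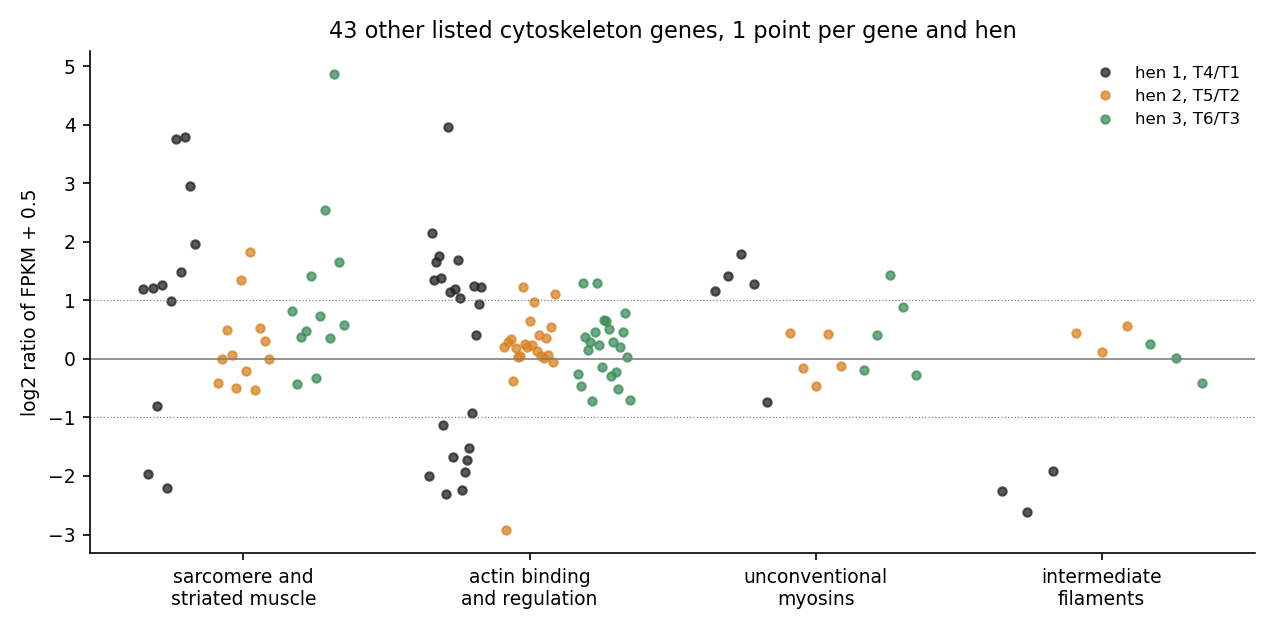
Log2 ratio of FPKM + 0.5 for the 43 other listed cytoskeleton genes, 1 point per gene and hen, in 4 lists, with dotted lines at a fold of 2. In hen 1 the genes split to both sides, and in hens 2 and 3 they gather near 0, with *SRL* among the sarcomere genes above the upper line in hen 3.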

How the data were processed

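The authors made 1 poly(A) RNA library per follicle. Bowtie 0.12.2 and Cufflinks appear in the processing notes of the submitters. FPKM and a normalized count, a signal equal to estimated fragments divided by 1 factor per library, were deposited by the authors for each gene and follicle. Of the low normalized counts, 89.9% to 90.4% per follicle were whole multiples of a step (tolerance 0.02), so no count model was used. The step gave the estimated fragments. A further column of values (1 in number) that names no sample was not used.

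Groups follow the submitters' titles and hens follow the study. After subtracting group means, the follicles of hens 1, 2 and 3 correlated over genes at 0.43, 0.18 and 0.53, and follicles of unlike hens at -0.46 to 0.18. T4 with T2, of unlike hens, had 0.182, against 0.181 for the pair of hen 2. Subtracting group means also ties these values to each other, so they do not test the pairing. limma 3.58.1 (R 4.3.3) was run with the hen as block as a two-sided test of genes that reached 1 FPKM in 3 or more follicles, and p-values were adjusted after Benjamini and Hochberg. Within hens, genes of at least 1 FPKM in 1 follicle were counted. Data for the 3 pairs were simulated with 200 of 12381 genes changed. Of the changed genes, 0% were called at 2-fold, 44.5% at 4-fold and 72% at 8-fold. At 8-fold, 4 unchanged genes were called too. The simulated errors were independent between genes, whereas T4 stood apart over many genes, so these shares may not hold for the real follicles. Python 3.11.15 was used for the rest.

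Beside the members, the text names from each list up to 4 genes with the largest absolute mean ratio of hens 2 and 3 at 5 FPKM, the 3 nearest named genes per member, and listed neighbours. A few genes that this rule gives are not reported here. Members and lists were chosen with earlier results of these data known.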

Additional observations from a re-analysis of the deposited data

How the results depend on the processing

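The directions of *NEXN*, *ACTA1*, *ABLIM1*, *DES* and *FSHR* held in every alternative tried, as did their signs within each hen, and without hen 1, 2 or 3 in turn their mean log2 ratios ran from 2.16 to 2.82, 1.13 to 1.55, 0.46 to 1.14, -1.38 to -0.06 and 0.74 to 1.45. That of *ABLIM3* ran from -0.998 to 0.11 and reversed without hen 1, also at 0.11 in the fits without robust. Calls by limma were 0 to 466 with a hen left out, the highest without hen 1, and without hen 1 they fell to 125 without robust and 21 without trend and robust. Both of these fits were chosen after seeing the data. *NEXN* (2.16) passed in all 3 fits without hen 1, *ACTA1* (1.28) in 2, and *FSHR* (0.74) in 1. Leaving out the replicate block gave 0 calls and changed no call. The mean ratios stayed at 2.55 for *NEXN* and -0.78 for *DES*, which this balanced design fixes in advance.

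With normalized counts the log2 ratio of *FSHR* in hen 2 was 0.68. At a fold of 4, 138 genes were higher and 318 lower in T4, 41 and 43 in T5, and 52 and 101 in T6. Of the listed cytoskeleton genes 5 were then higher and 5 lower in T4, 0 higher in T5 and 2 higher in T6. At 5 FPKM, 1102 genes were lower in T4, 102 higher and 168 lower in T5, and 281 lower in T6, with 1 listed gene higher and 0 lower in T5. With a pseudocount of 1, 270 genes were lower and 2 listed genes higher in T5. With normalized counts, 848 genes and 1 listed gene were lower in T6. The test on fragment counts was not run, because no deposited column of fragment counts could be tied to a follicle. The fragments estimated from the normalized counts, not all of which were whole multiples of the step, were not put to a test. Depth limits *ABLIM3* most, with 44 estimated fragments in T4.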
